A study of Mus musculus with 30 samples.

Results

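The chemokine system was followed through mouse livers that had lost hepatocyte *Cebpa* on a steatohepatitis diet. Members were every row of the gene table whose symbol is that of a chemokine ligand (Ccl, Cxcl, Cx3cl or Xcl), a signalling chemokine receptor (Ccr, Cxcr, Cx3cr or Xcr) or an atypical receptor (Ackr, and Ccrl2), which gave 61 of 55450 genes. By role these were 15 inflammatory CC ligands, 8 homeostatic CC ligands, 5 ELR-type CXC ligands, 3 CXC ligands of CXCR3, 7 other ligands, 18 signalling receptors and 5 atypical receptors. The choice used gene names and no measured value.

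The samples were whole livers of male mice on HFCFD, a diet rich in fat, cholesterol and fructose, measured by stranded poly(A) RNA sequencing. There were 6 groups of 5 mice, *Cebpa* fl/fl controls (labelled Cre-) and knockouts (labelled Cre+) in each of 3 experiments. The mice of HFCFD2W ate the diet for 2 weeks, and the knockouts were *Cebpa* ΔHep, in which albumin-cre deletes *Cebpa* in hepatocytes from early life. The knockouts of HFCFD8W+T10D and HFCFD12W+T10W were *Cebpa* ΔHep,ERT2, whose albumin-ERT2-cre acts after tamoxifen. The labels give both genotypes the same treatment, 8 weeks of diet with tamoxifen for 10 days, or 12 weeks of diet followed by 10 weeks with tamoxifen (22 weeks of HFCFD in all). The floxed mice had been crossed onto C57BL/6N. The albumin promoter that drives Cre is active in hepatocytes and not in leukocytes, Kupffer cells or endothelial cells, which keep *Cebpa*. The series describes the experiments as separate batches, and diet time, tamoxifen, Cre line and batch cannot be told apart between them.

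Chemokines are small secreted proteins that guide leukocytes along gradients by engaging G protein-coupled receptors. Inflammatory ligands such as CCL2 and the CXCR3 ligands are induced in injured tissue, homeostatic ligands such as CXCL12 place cells in resting tissue, and atypical receptors take up ligands without G protein signalling. In the liver, CCR2 marks monocytes that enter from blood, CX3CR1 marks monocyte-derived cells, and Kupffer cells, the resident macrophages, are replaced in part by such cells in steatohepatitis. C/EBPα, the product of *Cebpa*, is a transcription factor that maintains hepatocyte gene expression.

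Library totals ran from 7996123 to 10257347 counts. Levels are given as CPM, counts scaled to a common library total with TMM factors over all 30 libraries. *Cebpa* itself lay between 82.4 and 193 CPM in the fl/fl mice and between 3.43 and 25.1 CPM in the knockouts, with no overlap in any experiment. Knockout replicate 4 of HFCFD8W+T10D stood nearest to the controls, with 329 CPM summed over the members against 406 to 516 CPM in the other 4 knockouts and 270 to 348 CPM in the fl/fl mice. All results were also computed without it.

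To show the genes in their genomic setting, the 250 bases before the RefSeq start (build GRCm38.p6) are given for 6 members on which the results turn. *Ccl9* was called in every experiment. *Cx3cl1* and *Cxcl14* were the tested ligands with the highest fold changes. *Cxcl10* was called only in HFCFD8W+T10D. *Cxcl13* was the member called lower, and *Ackr3* is an atypical receptor. Capitals mark matches on either strand to the C/EBP motif TTGCNNAA, to the kB motif of NF-κB, or to the interferon-stimulated response element GAAANNGAAA. None of the marked matches overlap each other.
*Ccl9*, chr11:83578637-83578886, - strand: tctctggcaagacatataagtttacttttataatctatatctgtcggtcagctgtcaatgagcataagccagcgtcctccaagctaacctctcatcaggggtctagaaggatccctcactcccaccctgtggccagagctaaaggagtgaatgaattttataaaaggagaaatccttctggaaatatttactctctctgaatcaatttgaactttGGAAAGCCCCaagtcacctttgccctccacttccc
*Cxcl10*, chr5:92348890-92349139, - strand: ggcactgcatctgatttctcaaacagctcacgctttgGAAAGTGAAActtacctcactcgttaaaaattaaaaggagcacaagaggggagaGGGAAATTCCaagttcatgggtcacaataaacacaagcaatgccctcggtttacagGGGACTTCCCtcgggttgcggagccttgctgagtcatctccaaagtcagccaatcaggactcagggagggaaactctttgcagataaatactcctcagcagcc
*Cxcl14*, chr13:56296552-56296801, - strand: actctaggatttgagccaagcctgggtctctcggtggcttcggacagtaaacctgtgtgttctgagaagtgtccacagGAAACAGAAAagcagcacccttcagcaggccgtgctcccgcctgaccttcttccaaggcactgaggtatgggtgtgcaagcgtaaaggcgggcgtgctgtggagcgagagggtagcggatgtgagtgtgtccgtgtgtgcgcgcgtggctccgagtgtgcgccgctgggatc
*Cx3cl1*, chr8:94771930-94772179, + strand: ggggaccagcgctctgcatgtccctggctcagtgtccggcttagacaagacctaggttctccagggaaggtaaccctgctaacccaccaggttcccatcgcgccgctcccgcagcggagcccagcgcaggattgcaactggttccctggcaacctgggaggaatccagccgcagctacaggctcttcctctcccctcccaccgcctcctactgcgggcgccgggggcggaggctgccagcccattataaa
*Ackr3*, chr1:90203730-90203979, + strand: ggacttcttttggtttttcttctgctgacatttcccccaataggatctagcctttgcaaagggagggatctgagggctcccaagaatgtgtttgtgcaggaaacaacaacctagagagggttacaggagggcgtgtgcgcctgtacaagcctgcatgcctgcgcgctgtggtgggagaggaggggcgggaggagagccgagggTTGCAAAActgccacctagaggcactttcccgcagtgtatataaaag
*Cxcl13*, chr5:95956689-95956938, + strand: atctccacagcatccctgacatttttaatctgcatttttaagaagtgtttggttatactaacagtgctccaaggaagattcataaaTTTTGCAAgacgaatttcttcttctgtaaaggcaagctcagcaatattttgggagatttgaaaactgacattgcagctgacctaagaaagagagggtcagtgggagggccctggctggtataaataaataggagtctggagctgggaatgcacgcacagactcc

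The table held windows for 46 of the 61 members and 14 of the 19 called members. Of all 32851 windows of this length, 9.56% held the C/EBP motif, 3.9% the kB motif and 2.98% the interferon element. The C/EBP motif was found for 5 of the 46 members, among them *Ackr3* and *Cxcl13* of the called genes. The kB motif was found for 10 of the 46 members, including *Ccl9* (bases 35 to 26 upstream of the start) and *Cxcl10* (bases 159 to 150 and 103 to 94). The interferon element was found for 3 of the 46, including *Cxcl10* (bases 213 to 204) and *Cxcl14* (bases 172 to 163). The *Cx3cl1* window held none of the 3. A match is a description of the letters and not evidence of binding.

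Of the 61 members, 34 had too few counts to be tested in any experiment, 27 were tested in at least 1 and 11 in all 3. A total of 12 members had 3 counts or fewer in each of the 30 libraries, and 3 of them (*Ccl26*, *Ccl27b* and *Cxcl15*) had no count. The knockout was compared with fl/fl within each experiment by edgeR's quasi-likelihood test. Called here means a fold change above 2 together with an adjusted p below 0.05 over all genes tested. Most members were rare transcripts, and the levels of the others differed widely.

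On the TPM scale, which corrects for transcript length and so lets genes be compared, *Cxcl12* was the most abundant member, with a mean of 97.0 TPM over the 30 libraries. *Ccl9* followed with 45.9 TPM, *Ccl6* with 20.1, *Ccl5* with 12.6, *Cxcl16* with 12.1, *Cxcl9* with 8.85, *Ccl27a* with 7.99 and *Cxcl10* with 7.97. The order of the first 2 did not hold beyond the spread in every group. In HFCFD2W knockouts, *Cxcl12* was at 78.2 ± 2.13 TPM and *Ccl9* at 74.6 ± 18.3 TPM (mean ± SD, n = 5), whereas in HFCFD2W fl/fl livers they were at 70.7 ± 12.9 and 22.3 ± 5.21 TPM. Signalling receptors were lower, among them *Cxcr4* with a mean of 2.33 TPM and *Cx3cr1* with 1.86 TPM.

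**Figure D1:**
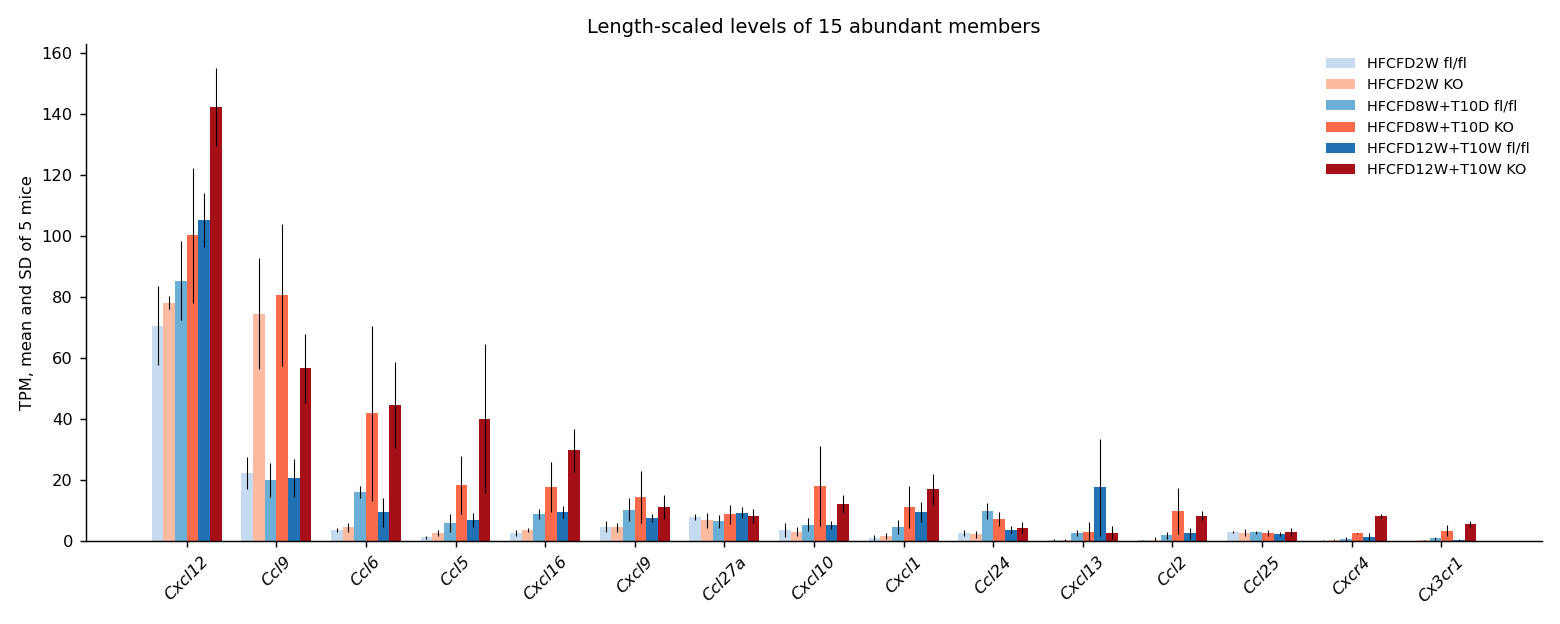
Mean TPM (bars, with SD of 5 mice) in the 6 groups for 15 of the most abundant members, fl/fl in blue and knockout in red, darker with longer diet. *Cxcl12* had the highest mean in every group, and *Ccl9* in the HFCFD2W knockouts lay within the error of *Cxcl12*.

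*Ccl9* was the single member called in HFCFD2W. *Ccl2*, *Ccl5*, *Ccl6*, *Cx3cl1* and the receptor genes *Ccr2*, *Cx3cr1* and *Cxcr4* were called higher in the knockouts of both tamoxifen experiments, and of these only *Ccl6* had enough counts to be tested in HFCFD2W. Of 11 members tested in HFCFD2W, 1 was higher in the knockouts, where 1.69% of all tested genes were called higher. The count was 9 of 22 for HFCFD8W+T10D (all genes, 4.09%) and 17 of 27 for HFCFD12W+T10W (all genes, 14.3%). In the lower direction, 0, 0 and 1 members were called, against 1.38%, 2.01% and 3.47% of all tested genes. DESeq2 also called 0 lower in the first 2 experiments, and at an unadjusted p under 0.05 edgeR had 0 and 1 lower.

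The median log2 fold changes of the tested members were 0.07, 0.91 and 1.50 in the order of diet time, beside 0.007, 0.011 and 0.013 over all tested genes. These counts and medians carry the filter on low counts. In HFCFD12W+T10W, 12 of the 27 tested members passed it only with the help of the knockout libraries, and 11 of these 12 were called higher. Of the 15 that the fl/fl libraries alone would have passed, 6 were called higher and 1 lower. Of the 16 such members of HFCFD8W+T10D, 5 were called higher. Tested members in which all 5 knockouts lay above all 5 fl/fl mice numbered 1, 5 and 15, beside 6.33%, 6.01% and 19.5% of all tested genes. The same held for the untested *Ccr3* and *Xcr1* in HFCFD8W+T10D and *Ccl3*, *Ccl20*, *Ccl21a*, *Cxcl5*, *Ccr1*, *Ccr3* and *Cxcr2* in HFCFD12W+T10W.

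**Figure D2:**
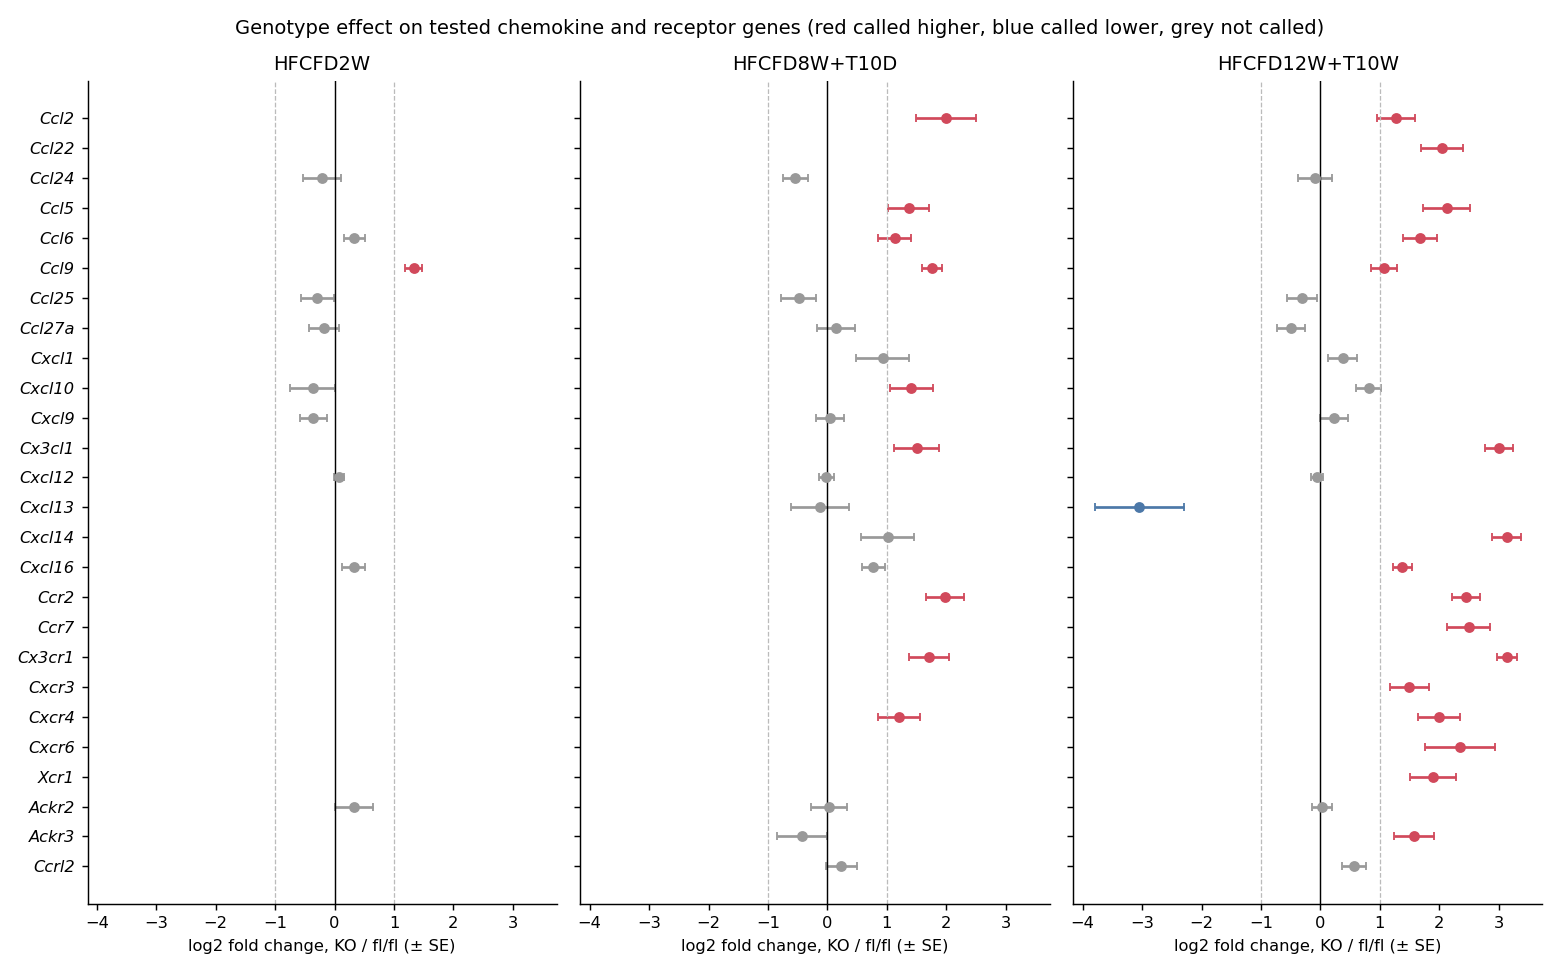
Log2 fold change of knockout over fl/fl (points, bars ± SE) for the tested members reported here in each experiment, with dashed lines at a fold change of 2. Red members were called higher and blue lower, with 1, 9 and 16 red points from left to right.

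Among inflammatory CC ligands, *Ccl9*, a ligand of CCR1 encoded on chromosome 11 (83572919 to 83578636, GRCm38), was the single member called in all 3 experiments. In HFCFD2W the fl/fl mice had 43.3, 34.4, 32.5, 42.8 and 41.7 CPM and the knockouts 102, 137, 84.4, 82 and 84.4 CPM. The HFCFD8W+T10D values were 27.9, 27.5, 24.7, 15.4 and 29.5 CPM in fl/fl and 91.3, 92.7, 94.5, 67.7 and 72.9 CPM in the knockouts. In HFCFD12W+T10W they were 16.1, 13.1, 22.1, 20.9 and 37.2 CPM and 37.1, 47.8, 51.9, 42 and 45.4 CPM. The genotypes did not overlap in the first 2 experiments, and in the last the lowest knockout lay just under the highest fl/fl mouse.

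The log2 fold changes of *Ccl9* were 1.34 ± 0.14 (SE, adjusted p = 6.81e-05), 1.76 ± 0.17 (SE, adjusted p = 4.31e-05) and 1.07 ± 0.22 (SE, adjusted p = 0.00138). The third fell to a fold change under 2 when fl/fl replicate 1 or fl/fl replicate 2 was left out, with a lowest log2 value of 0.91. No difference in this effect between experiments passed the interaction test, with values of 0.41 ± 0.27 (SE, adjusted p = 0.359), -0.72 ± 0.28 (SE, adjusted p = 0.0965) and -0.30 ± 0.28 (SE, adjusted p = 0.429) for HFCFD8W+T10D against HFCFD2W, HFCFD12W+T10W against HFCFD8W+T10D and HFCFD12W+T10W against HFCFD2W. In HFCFD2W, where *Ccl9* was 2.52-fold higher, 0 of the 6 tested macrophage and monocyte markers were called. At an unadjusted p under 0.05, 4 of them were higher. Of these, *Cd68*, *Csf1r* and *Lyz2* also passed the adjusted p but not the fold change. Their log2 fold changes were 0.70, 0.38 and 0.85 (adjusted p = 0.014, 0.0215 and 0.0277). The summed level of the marker list ran from 75.0 to 92.7 CPM in fl/fl and from 92.3 to 152 CPM in knockouts.

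*Ccl6*, a neighbouring gene on chromosome 11 (83587882 to 83593087) and also a CCR1 ligand, was called in the tamoxifen experiments only. Its range in HFCFD2W was 2.67 to 4.68 CPM in fl/fl and 3.92 to 5.75 CPM in knockouts, a log2 fold change of 0.33 ± 0.18 (SE, adjusted p = 0.235). The HFCFD8W+T10D ranges were 12.6 to 19 and 16.8 to 58.9 CPM, with a log2 fold change of 1.13 ± 0.28 (SE, adjusted p = 0.0154). In HFCFD12W+T10W they were 3.56 to 14.8 and 22.5 to 38 CPM, with 1.68 ± 0.28 (SE, adjusted p = 0.00031). The groups overlapped in the first 2 experiments and separated in the third. Without knockout replicate 2 the HFCFD8W+T10D value was 0.807, under a fold change of 2. The HFCFD12W+T10W effect was larger than that of HFCFD2W by 1.30 ± 0.45 (SE, adjusted p = 0.029), a call lost without HFCFD2W fl/fl replicate 5 (adjusted p = 0.0594).

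*Ccl2*, which encodes the main CCR2 ligand, was too low to test in HFCFD2W, at 0.148 to 0.425 CPM in fl/fl and 0 to 1.15 CPM in knockouts. The fl/fl mice of HFCFD8W+T10D had 1.85, 0.646, 0.347, 1.32 and 1.18 CPM and the knockouts 3.93, 8.13, 2.49, 1.07 and 5.41 CPM. In HFCFD12W+T10W the values were 0.831, 0.679, 1.15, 1.03 and 2.83 CPM and 2.79, 3.41, 3.46, 2.46 and 3.47 CPM. In each of these experiments a single mouse made the groups overlap, knockout replicate 4 in the first and fl/fl replicate 5 in the second. The log2 fold changes were 1.99 ± 0.50 (SE, adjusted p = 0.0173) and 1.27 ± 0.32 (SE, adjusted p = 0.0055). Without fl/fl replicate 5 the second was 1.78.

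*Ccl5*, a ligand made by T cells and macrophages, rose in both tamoxifen experiments without overlap between genotypes. The HFCFD8W+T10D range was 1.01 to 2.66 CPM in fl/fl and 2.73 to 6.57 CPM in knockouts, a log2 fold change of 1.37 ± 0.34 (SE, adjusted p = 0.0166). The HFCFD12W+T10W range was 1.13 to 2.52 CPM in fl/fl and 3.83 to 14.9 CPM in knockouts, a log2 fold change of 2.13 ± 0.39 (SE, adjusted p = 0.000625). The gene was not tested in HFCFD2W, where its ratio of summed counts was 2.12 (95% counting interval 1.13 to 4.17), and its effect did not pass the interaction test against either tamoxifen experiment (adjusted p = 0.851 and 0.308). *Ccl22*, a CCR4 ligand of dendritic cells and macrophages, had enough counts in HFCFD12W+T10W alone, where it was at 0.202 to 0.803 CPM in fl/fl and 1.01 to 2.18 CPM in knockouts (log2 fold change 2.04 ± 0.36 SE, adjusted p = 0.000426). *Ccl24*, a ligand of the eosinophil receptor CCR3, was the tested inflammatory CC ligand that was not called in any experiment, with log2 fold changes of -0.22, -0.54 and -0.09 (adjusted p = 0.69, 0.0999 and 0.827). The inflammatory CC ligands as a group gave 1 of 3, 4 of 5 and 5 of 6 tested members higher in the 3 experiments, beside 1.69%, 4.09% and 14.3% of all tested genes. *Ccl2* and *Ccl5* in HFCFD8W+T10D, and *Ccl2* and *Ccl22* in HFCFD12W+T10W, had passed the filter only with the help of the knockout libraries.

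Of the 8 homeostatic CC ligands, 2 had enough counts, and neither was called. *Ccl25*, a gut-homing ligand of CCR9, had log2 fold changes of -0.29, -0.49 and -0.31 (adjusted p = 0.508, 0.279 and 0.322). *Ccl27a* had -0.18, 0.14 and -0.49 (adjusted p = 0.665, 0.801 and 0.1). *Ccl27a* and *Ccl27b*, and *Ccl21a* and *Ccl21b*, are near-identical copies, so the split of reads between them is uncertain. *Ccl21a*, a CCR7 ligand that was not tested, had 2, 2, 1, 0 and 0 counts in fl/fl and 12, 10, 3, 8 and 3 in knockouts of HFCFD12W+T10W, a ratio of 5.58 (95% counting interval 2.18 to 18.2) for summed counts, with counting error only. Without the filter on low counts it was called higher there (adjusted p = 0.0138).

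Of the CXCR3 ligands, which attract activated T cells and are classically induced by interferon, *Cxcl10* was called in HFCFD8W+T10D and *Cxcl9* in no experiment. *Cxcl10* had 4.86, 2.46, 3.82, 4.16 and 6.19 CPM in fl/fl and 8.05, 21.7, 7.58, 5.57 and 13.8 CPM in knockouts of HFCFD8W+T10D, a log2 fold change of 1.41 ± 0.36 (SE, adjusted p = 0.0172). The lowest knockout, replicate 4, lay under the highest fl/fl mouse. In HFCFD12W+T10W the log2 fold change was 0.81 ± 0.21 (SE, adjusted p = 0.00577), past the adjusted p but under a fold change of 2, and in HFCFD2W it was -0.37 ± 0.37 (SE, adjusted p = 0.542). *Cxcl9*, at 22.8 ± 5.54 and 23 ± 8.4 CPM in fl/fl and knockout livers of HFCFD8W+T10D (mean ± SD, n = 5), had log2 fold changes of -0.36 ± 0.23 (SE, adjusted p = 0.32), 0.04 ± 0.23 (SE, adjusted p = 0.932) and 0.23 ± 0.23 (SE, adjusted p = 0.438).

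The *Cxcl10* effect was higher in HFCFD8W+T10D than in HFCFD2W by 1.77 ± 0.51 (SE, adjusted p = 0.0226) on the log2 scale. That call was lost without HFCFD8W+T10D knockout replicate 2 or without HFCFD2W fl/fl replicate 2, the fl/fl mouse with the highest *Cxcl10* of its group. *Cxcl11*, the remaining CXCR3 ligand, is annotated as a polymorphic pseudogene and was not tested. Among the ELR-type ligands, which attract neutrophils through CXCR2, *Cxcl1* alone was tested and was not called, with log2 fold changes of 0.93 ± 0.44 (SE, adjusted p = 0.174) and 0.38 ± 0.24 (SE, adjusted p = 0.213) in the tamoxifen experiments.

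*Cx3cl1*, which encodes fractalkine, the membrane-anchored ligand of CX3CR1, rose in both tamoxifen experiments. Its level in HFCFD8W+T10D was 1.27, 1.42, 1.16, 0.203 and 0.786 CPM in fl/fl and 3.09, 3.7, 2.81, 1.78 and 1.9 CPM in knockouts. In HFCFD12W+T10W the values were 1.07, 0.679, 0.459, 0.803 and 0.908 CPM and 5.31, 6.92, 8.01, 5.83 and 4.77 CPM. Every knockout lay above every control in both, while in HFCFD2W the ranges were 0.297 to 1.19 and 0.638 to 1.35 CPM and the gene was not tested. The log2 fold changes were 1.50 ± 0.38 (SE, adjusted p = 0.0165) and 3.00 ± 0.23 (SE, adjusted p = 8.79e-07), the latter a fold change of 7.99.

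*Cxcl14*, a ligand with roles in monocyte and dendritic cell recruitment, showed its difference in HFCFD12W+T10W. There the fl/fl mice had 0.237, 0.566, 0.918, 0.803 and 0.605 CPM and the knockouts 5.57, 5.16, 5.56, 4.37 and 6.46 CPM, a log2 fold change of 3.13 ± 0.24 (SE, adjusted p = 8.93e-07). The HFCFD8W+T10D ranges of 0.517 to 1.5 and 0.356 to 2.92 CPM overlapped (log2 fold change 1.01 ± 0.45 SE, adjusted p = 0.146). *Cxcl16*, the transmembrane ligand of CXCR6, reached 22.5 to 36.3 CPM in the knockouts against 8.67 to 14.8 CPM in fl/fl in HFCFD12W+T10W (log2 fold change 1.38 ± 0.16 SE, adjusted p = 1.37e-05). It passed the adjusted p but not the fold change in HFCFD8W+T10D (log2 fold change 0.77 ± 0.19 SE, adjusted p = 0.0152).

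*Cxcl12*, the CXCR4 ligand of liver endothelial and stellate cells, was called in no experiment. It ran from 144 to 196 CPM in fl/fl and 174 to 202 CPM in knockouts of HFCFD2W, 154 to 203 and 139.9 to 204 CPM in HFCFD8W+T10D, and 186 to 242 and 164 to 212 CPM in HFCFD12W+T10W, with overlap throughout. Its log2 fold changes were 0.07 ± 0.09 (SE, adjusted p = 0.629), -0.02 ± 0.13 (SE, adjusted p = 0.944) and -0.06 ± 0.10 (SE, adjusted p = 0.666). With library totals as the scale, an alternative added after seeing the data, the median of all genes moved from 0.013 to 0.384 in HFCFD12W+T10W and *Cxcl12* to 0.32 (adjusted p = 0.00575). *Cxcl9* moved to 0.61 (adjusted p = 0.0424). The value of *Cxcl12* is then below the median of all genes and that of *Cxcl9* above it. *Cxcr4*, the gene of the CXCL12 receptor, and the atypical receptor gene *Ackr3*, which also binds CXCL12, rose in that experiment, as given with the receptors.

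*Cxcl13*, the B cell ligand of CXCR5, was the member called lower. In HFCFD12W+T10W the fl/fl mice had 1.66, 2.6, 14.9, 32.8 and 17.6 CPM and the knockouts 0.348, 2.49, 1.69, 0.546 and 2.99 CPM. Of the fl/fl mice, 3 were far above all knockouts and the other 2 lay within the knockout range. The log2 fold change was -3.05 ± 0.75 (SE, adjusted p = 0.00427), and without fl/fl replicate 4 it was -2.48. The HFCFD8W+T10D genotypes were at 2.44 ± 0.761 and 2.16 ± 1.88 CPM (log2 fold change -0.12 ± 0.48 SE, adjusted p = 0.897). Of the 5 Kupffer cell markers, *Marco* and *Timd4* were called lower in HFCFD12W+T10W, with log2 fold changes of -2.35 and -2.72, while *Clec4f*, *Cd5l* and *Vsig4* had 0.11, 0.52 and 0.55 and were not called. *Marco* was called higher in HFCFD8W+T10D, with a log2 fold change of 2.18. Their part in the *Cxcl13* result was not tested.

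**Figure D3:**
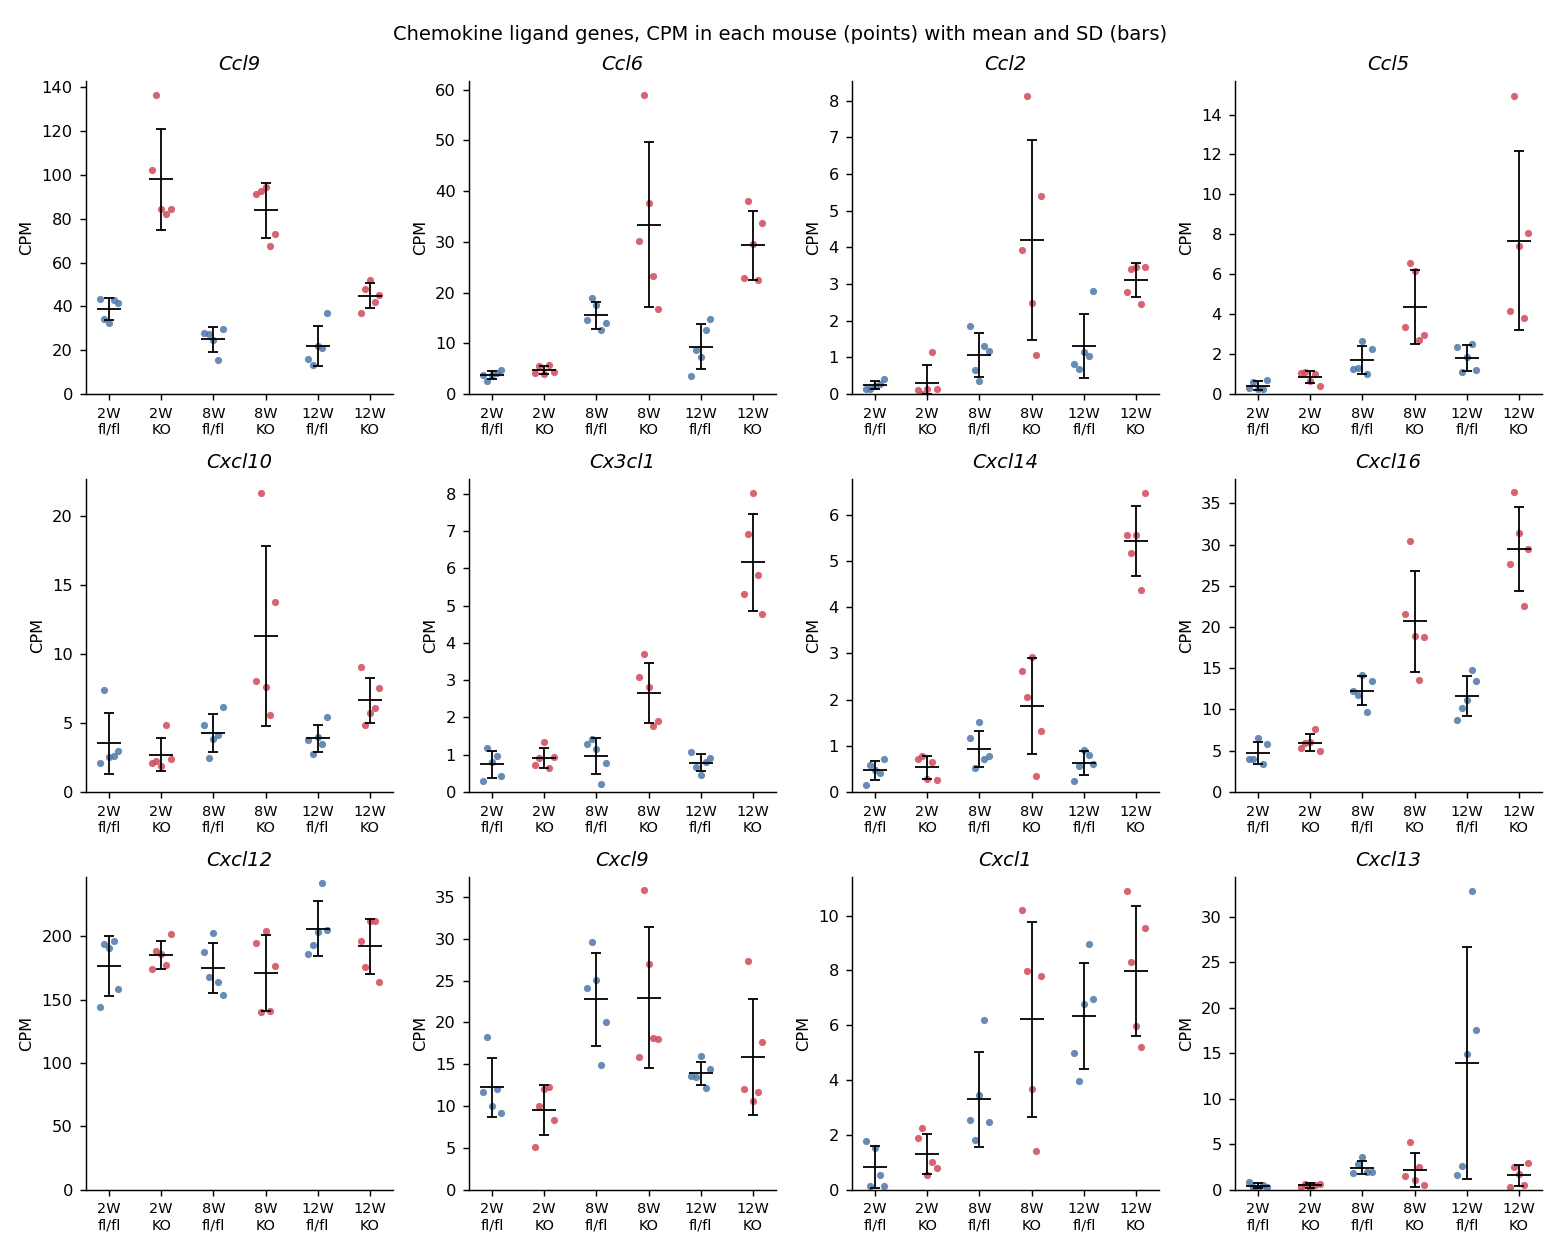
CPM of 12 ligand genes in each mouse (points) of the 6 groups, with mean and SD (bars), fl/fl in blue and knockout in red, the experiments being named by their first diet time and knockouts as KO. *Ccl9* was higher in knockouts in all 3 experiments, *Cx3cl1* and *Cxcl14* separated in HFCFD12W+T10W, *Cxcl12* and *Cxcl9* overlapped, and 3 of 5 HFCFD12W+T10W fl/fl mice had high *Cxcl13*.

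Every signalling receptor with enough counts was called higher in HFCFD12W+T10W, 8 of 8, beside 14.3% of all tested genes. In all 8 the knockouts lay above the fl/fl mice without overlap, beside 19.5% of all tested genes. The other 10 receptor genes were not tested there, and 6 of the 8 had passed the filter with the help of the knockout libraries. Of 4 receptors tested in HFCFD8W+T10D, 3 were called higher, beside 4.09% of all tested genes. Of these 3, *Cxcr4* passed the filter only with the help of the knockout libraries. In bulk liver, more cells of a type and more RNA per cell cannot be told apart.

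*Cx3cr1*, the fractalkine receptor, had the highest fold change of the tested members. The HFCFD8W+T10D fl/fl mice had 1.39, 3.75, 4.4, 1.42 and 3.54 CPM and the knockouts 11.3, 12.5, 10.2, 5.1 and 7.21 CPM (log2 fold change 1.70 ± 0.33 SE, adjusted p = 0.00493). In HFCFD12W+T10W the values were 1.66, 1.92, 1.15, 1.26 and 1.41 CPM and 11.2, 11.8, 15.7, 10.8 and 13.9 CPM (log2 fold change 3.14 ± 0.17 SE, adjusted p = 6.15e-08), a fold change of 8.78. The gene and its ligand gene *Cx3cl1* were thus both called in both tamoxifen experiments.

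*Ccr2*, the CCL2 receptor of blood monocytes, was at 3.24, 1.68, 1.62, 1.73 and 2.46 CPM in fl/fl and 9.92, 11.2, 10.1, 3.2 and 7.5 CPM in knockouts of HFCFD8W+T10D. In HFCFD12W+T10W it was at 1.66, 1.58, 1.26, 2.87 and 1.21 CPM and 7.14, 12.1, 7.42, 8.74 and 10.2 CPM. The log2 fold changes were 1.98 ± 0.32 (SE, adjusted p = 0.00147) and 2.45 ± 0.24 (SE, adjusted p = 4.3e-06). Knockout replicate 4 of HFCFD8W+T10D, at 3.2 CPM, lay under the highest fl/fl mouse, and the genotypes were separate in HFCFD12W+T10W. In HFCFD2W *Ccr2* was not tested, at 0.567 to 1.19 CPM in fl/fl and 0.336 to 1.48 CPM in knockouts.

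*Cxcr4*, the CXCL12 receptor, lay at 0.463 to 1.85 CPM in fl/fl and 1.97 to 3.13 CPM in knockouts of HFCFD8W+T10D, a log2 fold change of 1.21 ± 0.35 (SE, adjusted p = 0.0328). In HFCFD12W+T10W it lay at 0.226 to 2.98 and 6.54 to 8.02 CPM, a log2 fold change of 2.00 ± 0.35 (SE, adjusted p = 0.000437). The genotypes were separate in both. In HFCFD2W, where it was not tested, the ratio of summed counts was 2.81 (95% counting interval 1.34 to 6.44), and the interactions with HFCFD2W did not pass (adjusted p = 0.873 and 0.71). The first of these calls was lost without knockout replicate 3 or 5 or without fl/fl replicate 2, 3 or 4, with an adjusted p of up to 0.0806.

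The lymphocyte and dendritic cell receptors had enough counts to be tested in HFCFD12W+T10W alone. *Ccr7*, which takes dendritic and T cells to lymph nodes, was at 0.113 to 0.475 CPM in fl/fl and 1.2 to 2.46 CPM in knockouts (log2 fold change 2.49 ± 0.36 SE, adjusted p = 8.85e-05). *Cxcr6*, a receptor of liver T and NKT cells, was at 0 to 1.15 and 1.22 to 3.5 CPM (log2 fold change 2.35 ± 0.59 SE, adjusted p = 0.00515), and without fl/fl replicate 4 its log2 fold change was 3.07. *Cxcr3*, the receptor of CXCL9 and CXCL10, had a log2 fold change of 1.50 ± 0.33 (SE, adjusted p = 0.00231), and *Xcr1*, which marks cross-presenting dendritic cells, one of 1.90 ± 0.39 (SE, adjusted p = 0.00121). The lowest knockout was above the highest fl/fl mouse for each of these genes. By summed counts *Xcr1* had a ratio of 2.61 (95% counting interval 1.13 to 6.75) in HFCFD2W and of 2.29 (95% counting interval 1.43 to 3.8) in HFCFD8W+T10D, the latter without overlap, and *Ccr7* one of 1.98 (95% counting interval 1.26 to 3.18) in HFCFD8W+T10D.

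Among the atypical receptors, *Ackr3*, a scavenger of CXCL12, rose in HFCFD12W+T10W, with 0.344 to 1.43 CPM in fl/fl and 1.65 to 3.37 CPM in knockouts (log2 fold change 1.58 ± 0.33 SE, adjusted p = 0.00154). Its HFCFD8W+T10D value was -0.43 ± 0.42 (SE, adjusted p = 0.537). *Ackr2*, a scavenger of inflammatory CC ligands, was tested in all 3 experiments and not called, with log2 fold changes of 0.33 ± 0.32 (SE, adjusted p = 0.52), 0.02 ± 0.31 (SE, adjusted p = 0.971) and 0.02 ± 0.17 (SE, adjusted p = 0.932). *Ccrl2*, which binds chemerin, had 0.56 ± 0.21 (SE, adjusted p = 0.0377) in HFCFD12W+T10W, under a fold change of 2.

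**Figure D4:**
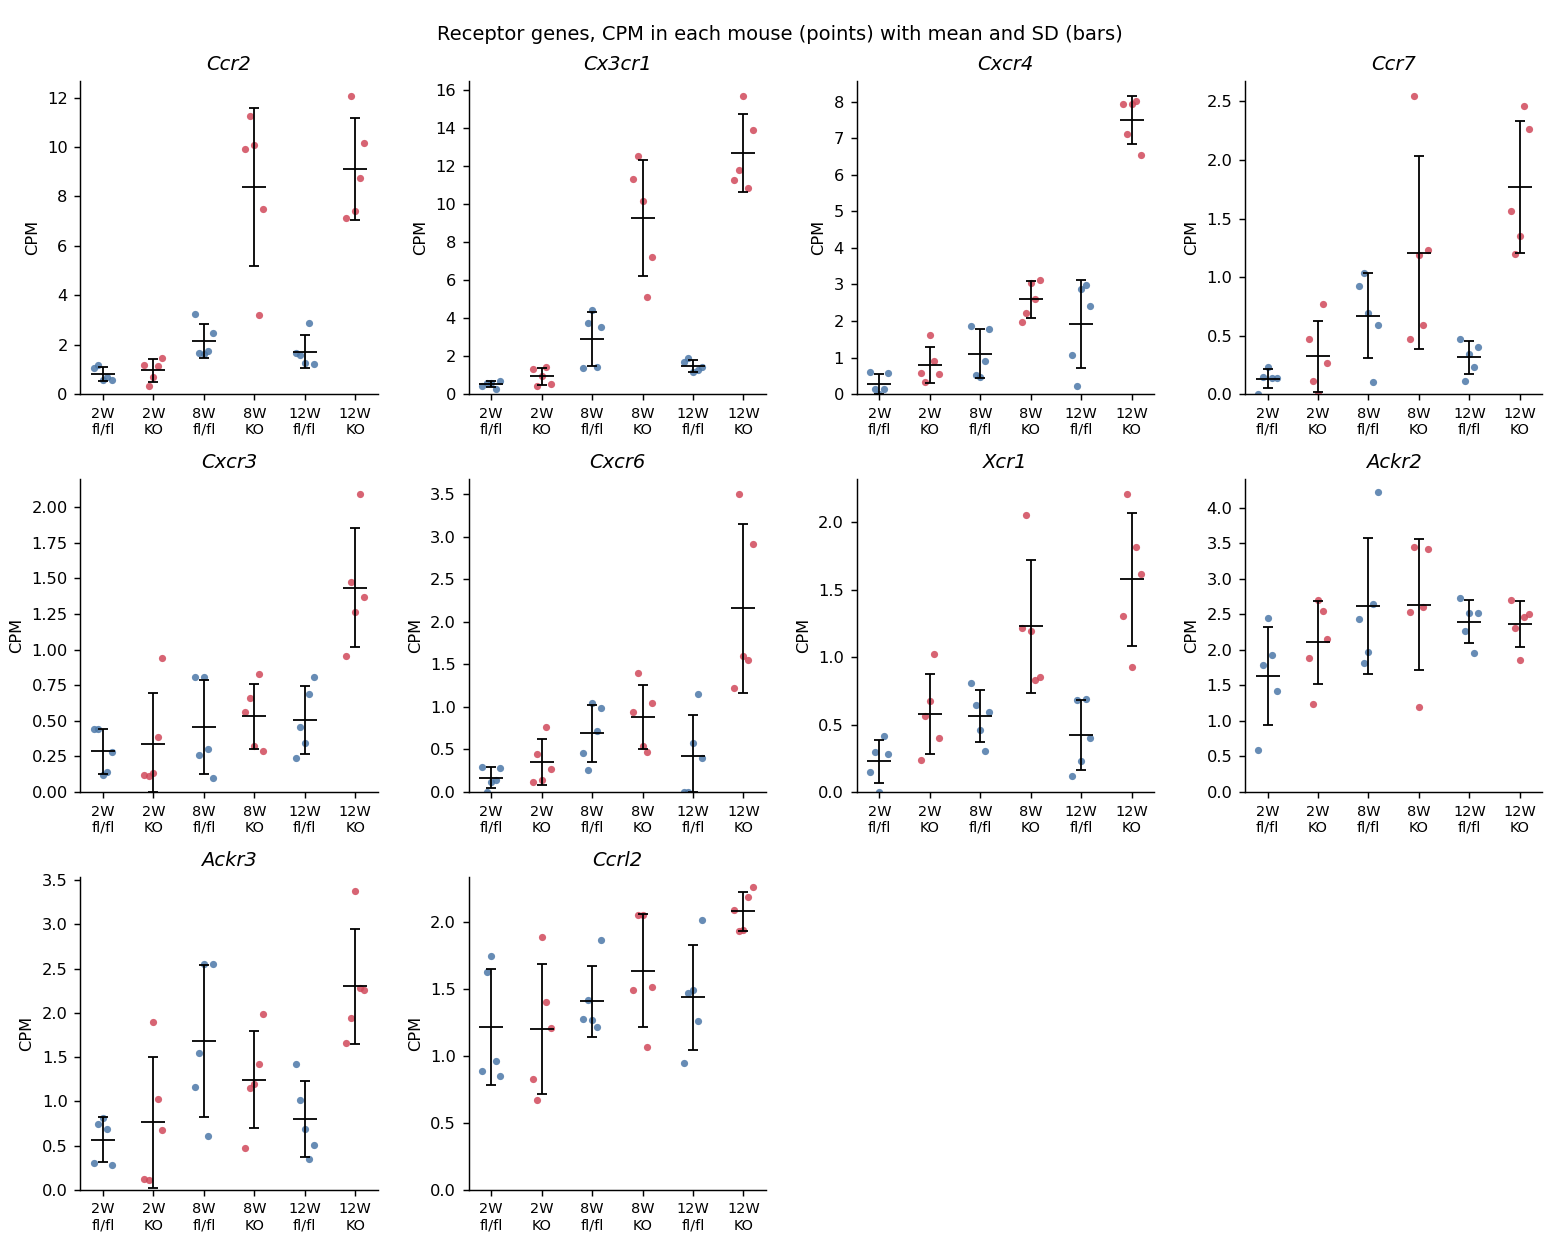
CPM of 10 receptor genes in each mouse (points) of the 6 groups, with mean and SD (bars), fl/fl in blue and knockout in red, the experiments being named by their first diet time and knockouts as KO. The signalling receptors shown were, in HFCFD12W+T10W, higher in every knockout than in any fl/fl mouse, as were 19.5% of all tested genes. *Ackr2* overlapped throughout.

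Several inflammatory members fell below the filter and are given as counts summed over the 5 libraries of a group, scaled by effective library size, with exact intervals that cover counting error only and not the spread between mice. *Ccr1*, the receptor of CCL6 and CCL9, had 4, 3, 2, 2 and 0 counts in the fl/fl mice of HFCFD12W+T10W and 8, 25, 41, 18 and 15 in the knockouts, a ratio of 7.54 (95% counting interval 4.05 to 15.6). Without the filter on low counts its log2 fold change was 2.88 (adjusted p = 0.000404). In that fit 27 members were called higher in HFCFD12W+T10W, and the share of all genes called higher without the filter was not computed.

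*Cxcl5*, an ELR-type ligand, had 2, 1, 0, 1 and 1 counts in fl/fl and 6, 8, 29, 12 and 15 in knockouts there, a ratio of 10.8 (95% counting interval 4.43 to 34.4). The ratio of *Cxcr2*, the receptor of the ELR-type ligands, was 3.15 (95% counting interval 1.8 to 5.83), and that of *Ccl3*, a CCR1 ligand, 3.02 (95% counting interval 1.48 to 6.79). For all of these the knockouts lay above the fl/fl mice without overlap. The related ligand gene *Ccl4* had a ratio of 2.84 (95% counting interval 1.48 to 5.91) with overlap.

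*Ccr3* and *Ccl20*, which encode the eosinophil receptor and the CCR6 ligand, were at 0 counts in all 5 fl/fl mice of HFCFD12W+T10W and at 4, 4, 4, 2 and 2 and 1, 1, 4, 3 and 7 counts in the knockouts. Against a floor of 3 counts over the group, the knockout sums of both were 4.13-fold higher. Such a value takes the knockout sum as exact and leaves out its counting error and the spread between mice. *Ccl11*, a CCR3 ligand, was 3.1-fold above this floor in that experiment and *Ccl20* 3.82-fold above it in HFCFD8W+T10D, in both cases with knockouts at 0 counts among the others. *Ccr1* had a ratio of 5.36 (95% counting interval 2.89 to 10.9) in HFCFD8W+T10D. Differences of the 12 members at 3 counts or fewer were not detectable at this depth.

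The differences between experiments were tested in 1 fit of all 30 libraries. Its filter on low counts spans all 6 groups, so a member can enter through the groups where it is high. Against HFCFD2W, the genotype effect in HFCFD8W+T10D was higher for 2 members and lower for 0 of 31 tested, beside 4.45% and 6.79% of all tested genes. These were *Cxcl10* and *Ccr2*, the latter by 1.72 ± 0.55 (SE, adjusted p = 0.0405). At an unadjusted p under 0.05, edgeR had 0 lower. The *Ccr2* call was lost when any of 11 of the 20 mice was left out, with an adjusted p of up to 0.101. DESeq2 called 2 members as well.

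From HFCFD8W+T10D to HFCFD12W+T10W the effect was higher for 4 members and lower for 1, beside 4.97% and 5.49% of all tested genes. *Cxcl14* differed by 2.09 ± 0.52 (SE, adjusted p = 0.0112), *Ackr3* by 1.97 ± 0.64 (SE, adjusted p = 0.046), *Cx3cl1* by 1.46 ± 0.46 (SE, adjusted p = 0.0363) and *Cx3cr1* by 1.40 ± 0.39 (SE, adjusted p = 0.0205). *Cxcl13* differed in the other direction, by -2.96 ± 0.86 (SE, adjusted p = 0.0259). *Cxcl14* alone kept its call whichever mouse was left out. *Cx3cr1* lost it without HFCFD8W+T10D fl/fl replicate 3 (adjusted p = 0.053). *Cxcl13* lost it without HFCFD8W+T10D knockout replicate 2, HFCFD8W+T10D fl/fl replicate 5 or HFCFD12W+T10W fl/fl replicate 4, while *Cx3cl1* lost it for 10 and *Ackr3* for 14 of the 20 mice.

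From HFCFD2W to HFCFD12W+T10W the effect was higher for 7 members and lower for 0, beside 13.4% and 17.3% of all tested genes. *Cxcl14* differed by 2.87 ± 0.66 (SE, adjusted p = 0.00166), *Cx3cl1* by 2.68 ± 0.52 (SE, adjusted p = 0.000341), *Cx3cr1* by 2.28 ± 0.61 (SE, adjusted p = 0.00508) and *Ccr2* by 2.16 ± 0.56 (SE, adjusted p = 0.00411). These genes had too few counts to be tested within HFCFD2W. All but *Ccr2* passed the filter within HFCFD12W+T10W only with the help of the knockout libraries, which favours differences in this direction. *Ccl6* differed by 1.30 and *Cxcl16* by 1.02. Of the members named in this comparison, all but *Ccl6* kept their call whichever of the 20 mice was left out. At an unadjusted p under 0.05, 1 member was lower by edgeR, and DESeq2 called 8 members in all. Cre line, tamoxifen and batch cannot be told apart from diet time in these differences.

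The fl/fl livers themselves differed between experiments. Between HFCFD2W and HFCFD8W+T10D controls, 14 of 31 tested members were higher and 0 lower at HFCFD8W+T10D, beside 11.1% and 2.59% of all tested genes. These counts carry the filter of the fit of 30 libraries, which favours members low in HFCFD2W and high elsewhere. Of those called, *Ccl2*, *Ccl5*, *Cxcl1*, *Cxcl13*, *Ccr2*, *Ccr7*, *Cx3cr1*, *Cxcr4*, *Cxcr6* and *Ackr3* had too few counts to be tested within HFCFD2W. Abundant ligands among the 14 were *Ccl6* (log2 difference 2.03 ± 0.32 SE, adjusted p = 1.13e-05) and *Cxcl16* (1.35 ± 0.21 SE, adjusted p = 6.63e-06). *Cx3cr1*, *Ccl2*, *Ccl5* and *Cxcl1* rose by 2.43, 2.07, 2.01 and 1.96. *Ccl24*, *Ccr2*, *Ccr7* and *Cxcr4* rose by 1.62, 1.41, 2.15 and 1.97, and *Cxcl13*, *Cxcr6* and *Ackr3* by 2.42, 2.00 and 1.53. The last 3 lost the call for 3 to 5 of the 10 mice left out, and *Ccl2* lost it without HFCFD8W+T10D fl/fl replicate 1 (adjusted p = 0.0627).

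Other abundant ligands were not called between these controls. *Ccl9* was lower at HFCFD8W+T10D by -0.64 ± 0.20 (SE, adjusted p = 0.011) and *Cxcl9* higher by 0.89 ± 0.26 (SE, adjusted p = 0.00648), both under a fold change of 2. The log2 differences of *Cxcl12*, *Ccl27a* and *Cxcl10* were -0.01, -0.45 and 0.31 (adjusted p = 0.95, 0.19 and 0.516). DESeq2 called 14 members in this comparison. Between HFCFD8W+T10D and HFCFD12W+T10W controls, 1 member was higher and 2 were lower, beside 1.19% and 1.87% of all tested genes. *Cxcl13* was higher by 2.52 ± 0.57 (SE, adjusted p = 0.00383), and *Ccl24* was lower with a log2 difference of -1.50 ± 0.26 (SE, adjusted p = 0.000287).

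Macrophage and monocyte markers were called higher in the knockouts of both tamoxifen experiments, whereas all lymphocyte, neutrophil and dendritic cell calls came in HFCFD12W+T10W. Beside all marker counts that follow, 4.09% of all tested genes were called higher in HFCFD8W+T10D and 14.3% in HFCFD12W+T10W. Called lower were 2.01% and 3.47%. Marker counts also carry the filter on low counts, which some markers passed only with the help of the knockout libraries. Of 9 macrophage and monocyte markers, HFCFD8W+T10D called 6 higher and HFCFD12W+T10W 8, and in HFCFD12W+T10W their summed level was 143 to 385 CPM in fl/fl and 559 to 727 CPM in knockouts. *Itgax*, which encodes CD11c, had the highest fold change of the list, with log2 values of 2.38 and 3.39. Of 5 Kupffer cell markers, 0 were called higher and 2 lower in HFCFD12W+T10W, with 1 higher at an unadjusted p under 0.05. Their summed level there was 190 to 637 CPM in fl/fl and 391 to 526 CPM in knockouts. In HFCFD8W+T10D, 1 of the 5 was called higher, with sums of 407 to 829 CPM in fl/fl and 690.4 to 1438 CPM in knockouts.

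For lymphocytes, 3 of 4 tested T and NK cell markers were higher in HFCFD12W+T10W, with sums of 4.04 to 4.71 CPM in fl/fl and 8.88 to 20.4 CPM in knockouts. These 3, *Cd3g*, *Cd8a* and *Nkg7*, had fl/fl means of 0.402, 0.424 and 0.67 CPM. That is under the filter's cutoff of 1.12 CPM, so they were testable through the knockout libraries. In HFCFD8W+T10D 0 of 1 was called (0 at an unadjusted p under 0.05), *Cd4* alone having enough counts. The T and NK cell sums there were 3.54 to 4.97 CPM in fl/fl and 4.74 to 9.61 CPM in knockouts. All 4 tested neutrophil markers, both tested B cell markers and 2 of 3 tested dendritic cell markers were higher in HFCFD12W+T10W. In HFCFD8W+T10D 0 of 3, 0 of 3 and 0 of 2 of these were called (1, 2 and 1 at an unadjusted p under 0.05). The filter bears on the HFCFD12W+T10W counts here too. There *S100a8*, *Cd79b*, *Flt3* and *Clec9a* had fl/fl means of 0.919, 0.63, 0.69 and 0.456 CPM. Of 7 stellate cell markers, HFCFD8W+T10D had 1 higher and HFCFD12W+T10W had 4, and of 4 cholangiocyte markers they had 1 and 4. Of 6 endothelial markers, 0 were called in any experiment. At an unadjusted p under 0.05, 2 were higher in HFCFD2W, 1 was lower in HFCFD8W+T10D and 2 were lower in HFCFD12W+T10W. Past the adjusted p but under a fold change of 2, *Stab2* was lower in HFCFD8W+T10D (-0.52, adjusted p = 0.0114). In HFCFD12W+T10W so were *Stab2* (-0.54, adjusted p = 0.00282) and *Clec4g* (-0.50, adjusted p = 0.0259). *Alb* and *Serpina1c* of the 5 hepatocyte markers were called lower in HFCFD12W+T10W, with log2 fold changes of -1.10 and -1.96, while *Apoa1*, *Trf* and *Ttr* had -0.03, 0.24 and 0.13. *Serpina1c* was also called lower in HFCFD8W+T10D, with -1.38. *Ly6g* of the neutrophil list was at 0 counts in HFCFD2W. The part of these shifts in the chemokine and receptor results was not tested.

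**Figure D5:**
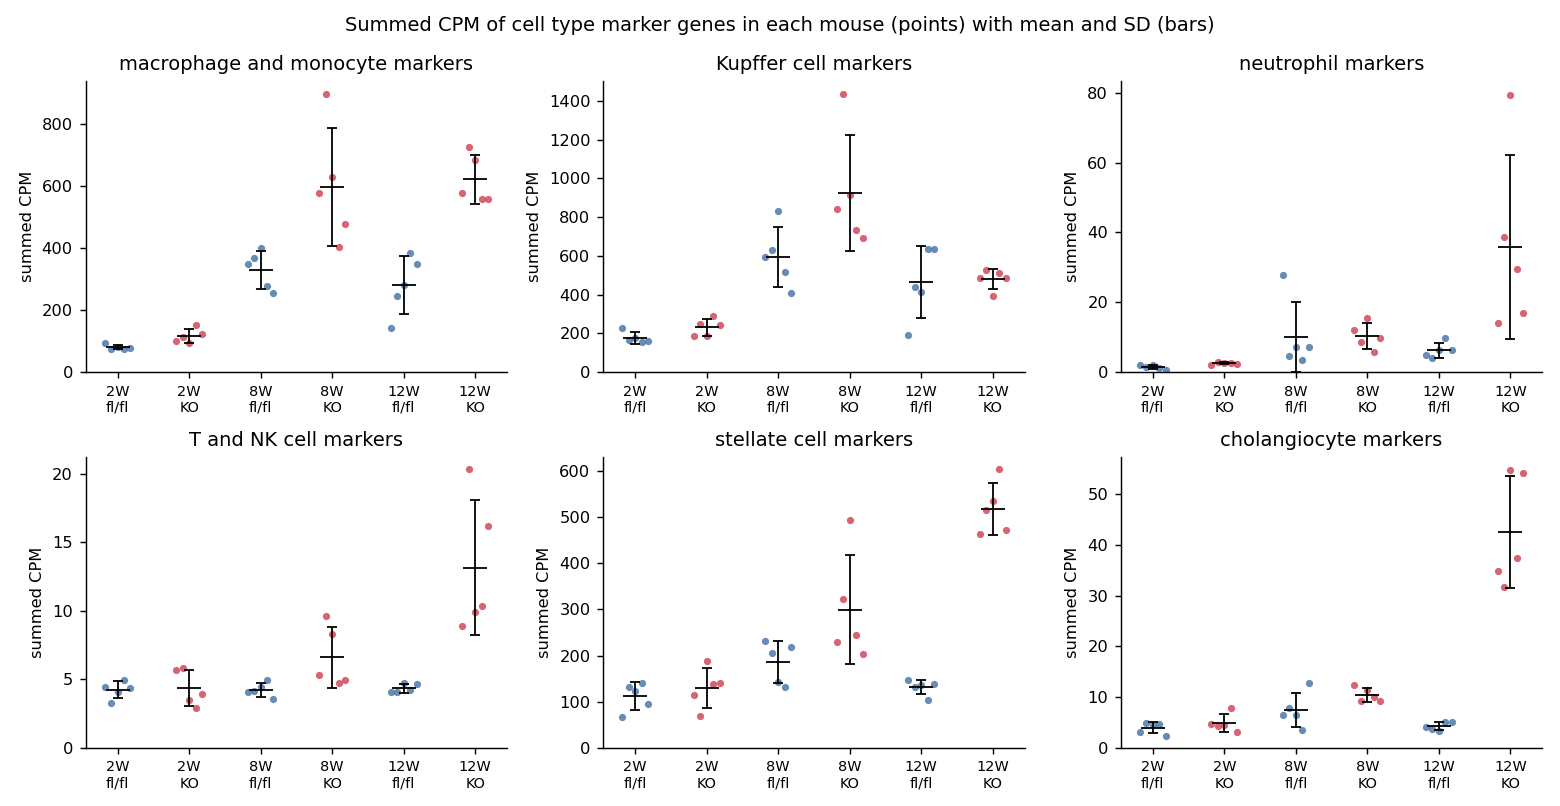
Summed CPM of the marker genes of 6 cell types in each mouse (points) with mean and SD (bars), fl/fl in blue and knockout in red, the experiments being named by their first diet time and knockouts as KO. In HFCFD12W+T10W the macrophage and monocyte sum was 143 to 385 CPM in fl/fl and 559 to 727 CPM in knockouts, while the Kupffer cell sums overlapped.

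Genes through which the receptors act were also among those called. Of 23 measured signalling genes downstream of chemokine receptors, the 3 experiments in the order of diet time called 1 of 16, 5 of 23 and 14 of 23 tested as higher, beside 1.69%, 4.09% and 14.3% of all tested genes, and 0 as lower (1, 0 and 0 at an unadjusted p under 0.05). *Grk3*, a kinase that desensitizes receptors, was called in all 3, with log2 fold changes of 1.15, 1.15 and 1.95. The highest of HFCFD8W+T10D were *Pik3r5*, a subunit of PI3Kγ (1.66), *Dock2*, a Rac activator of migrating leukocytes (1.18), and *Grk3*. In HFCFD12W+T10W they were *Rgs1*, a regulator of G protein signalling (2.07), *Pik3r5* (1.98) and *Grk3*. The counts of signalling genes also carry the filter on low counts. In HFCFD8W+T10D, *Pik3r5* had an fl/fl mean of 0.798 CPM, under the filter's cutoff of 1.08 CPM, so it was testable through the knockout libraries.

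Of 19 genes upstream of chemokine induction, cytokines, Toll-like receptors and NF-κB or interferon factors, 0 were called lower. At an unadjusted p under 0.05, 3, 0 and 1 were lower and 2, 9 and 9 higher. *Irf1* and *Ltbr* in HFCFD2W and *Rela* in HFCFD12W+T10W were lower past the adjusted p but under a fold change of 2. Their log2 fold changes were -0.91, -0.34 and -0.16 (adjusted p = 0.019, 0.0134 and 0.0499). Called higher were 1 of 12, 1 of 15 and 4 of 15 tested, beside 1.69%, 4.09% and 14.3% of all tested genes. These were *Tlr4* in HFCFD2W (log2 fold change 1.06), *Tlr2* in HFCFD8W+T10D (1.36), and *Ltb* (2.84), *Relb* (1.68), *Tlr2* (1.52) and *Tlr4* (1.29) in HFCFD12W+T10W. *Ltb*, at 0.473 CPM in fl/fl and 3.35 CPM in knockouts there, passed the low-count filter with the help of the knockout libraries. The same held for *Tlr4* in HFCFD2W (adjusted p = 0.0478), whose fl/fl mean of 1.03 CPM was under the cutoff of 1.11 CPM. *Il17a* was at 0 counts in all 3 experiments, and *Il6* and *Ifng* in HFCFD2W. Of 9 related genes whose names fall outside the rule, *Cmklr1*, the chemerin receptor, was higher in HFCFD2W (1.01) and HFCFD12W+T10W (1.26). *Cd74*, a receptor for the cytokine MIF, was also higher in HFCFD12W+T10W (2.13), as was *Pf4* (1.15). The fl/fl mean of *Pf4* there was 1.10 CPM, just under the cutoff of 1.12 CPM, so it too passed with the help of the knockout libraries. Of the 7 tested in HFCFD8W+T10D, 0 were called by edgeR, with 2 higher and 1 lower at an unadjusted p under 0.05.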

How the data were processed

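Per the labels and the paper's methods, 30 mouse liver libraries were made from poly(A) RNA with a stranded kit. The submitters' processing notes name Trimmomatic 0.36, STAR 2.5.1, Picard 1.84, RSEM 1.2.22, DESeq2 and mm10. The authors deposited RSEM expected counts per gene without normalization, as 1 table and per library, and the deposited TPM values were used to compare genes with each other. Other deposited tables of normalized values were not used here. All 55450 identifiers were found in GENCODE M21 (GRCm38), the source of coordinates.

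Expected counts (11.3% of nonzero values were not whole) were rounded. With R 4.3.3 and edgeR 4.0.16, filterByExpr, TMM and quasi-likelihood F tests compared genotypes within each experiment, with Benjamini-Hochberg adjustment over all genes tested. SE is the log2 fold change divided by the square root of F. Interactions (adjusted p under 0.05) and control comparisons came from 1 fit of 30 libraries. Alternatives used DESeq2 1.42.0, other scalings, no filter, a joint fit, a replicate block and each mouse left out. Scripts were tested on simulated data.

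Members and gene lists were chosen with earlier results of these data known. Members named were those called, those with a mean of at least 5 CPM, *Ccl2*, and those with a called difference between experiments or controls; *Ccl25*, *Ccl27a*, *Ackr2*, *Ccrl2*, *Cxcl11* and the members under the filter were named after their values were seen. Results of 1 receptor gene are not reported here, though it stays in the counts and medians. Of the lists, up to 3 called genes per experiment with the highest fold change were named, and further list genes after their values were seen. Mice sharing a replicate number were not paired: correlations of their deviations ran from -0.25 to 0.17. Depth limits rare members, and RSEM splits reads that fit several genes.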

Additional observations from a re-analysis of the deposited data

Results flagged for a closer look

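Among 21 members with values in 6 groups each, 5 of 126 groups held a mouse far from the other 4 by Dixon's test, where chance flags about 5%. *Ccl2* was at 1.15 CPM in HFCFD2W knockout replicate 5, where the others ran from 0 to 0.135 CPM, and at 2.83 CPM in HFCFD12W+T10W fl/fl replicate 5, where the others ran from 0.679 to 1.15 CPM. *Ccr2* was at 2.87 CPM in HFCFD12W+T10W fl/fl replicate 4 (others 1.21 to 1.66 CPM). *Cxcl10* was at 7.42 CPM in HFCFD2W fl/fl replicate 2 (others 2.08 to 2.98 CPM) and at 4.85 CPM in HFCFD2W knockout replicate 5 (others 1.89 to 2.42 CPM).

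The genotype effect differed between experiments, by the interaction test, in 13 cases reported here. From HFCFD2W to HFCFD8W+T10D the log2 difference was 1.77 for *Cxcl10* and 1.72 for *Ccr2*. From HFCFD8W+T10D to HFCFD12W+T10W it was 1.46 for *Cx3cl1*, -2.96 for *Cxcl13*, 2.09 for *Cxcl14*, 1.40 for *Cx3cr1* and 1.97 for *Ackr3*. From HFCFD2W to HFCFD12W+T10W it was 1.30 for *Ccl6*, 2.68 for *Cx3cl1*, 2.87 for *Cxcl14*, 1.02 for *Cxcl16*, 2.16 for *Ccr2* and 2.28 for *Cx3cr1*. Their stability to leaving out a mouse is given with each in the results.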

How the results depend on the processing

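Of 504 values of called members under other settings, 496 kept their direction and call, 8 lost the call when a mouse was left out (*Cxcr4* and *Ccl6* in HFCFD8W+T10D, *Ccl9* in HFCFD12W+T10W) and none changed sign. Without the low-count filter, 27 members were called higher in HFCFD12W+T10W, where the share of all genes called higher was not computed. The medians were then 0.221 in HFCFD2W and 1.29 in HFCFD12W+T10W. Without this filter, 1 and 3 members differed in effect from HFCFD2W to HFCFD8W+T10D and on to HFCFD12W+T10W. The joint fit gave medians of 0.269 and 1.34, with more members tested, and total counts as the scale gave 1.86 in HFCFD12W+T10W. At an adjusted p under 0.01, 3 members were higher in HFCFD8W+T10D, the 2 counts of differing effects were 0 and 0, and 8 members differed between the controls of HFCFD2W and HFCFD8W+T10D.

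The replicate block left every count of called members as it was (1, 9 and 17 higher), but left 0 and 3 members with differing effects; the cause was not tested. The block cannot give the control comparisons. Leaving out each mouse gave medians of -0.0614 to 0.154, 0.718 to 1.08 and 1.31 to 1.68 in the 3 experiments, counts higher of 1 to 1, 8 to 12 and 17 to 18, and counts lower of 0 to 0, 0 to 0 and 1 to 1. The 12 was reached without knockout replicate 4. Members with differing effects numbered 0 to 2, 2 to 7 and 6 to 9, and those between controls 12 to 16 and 2 to 4.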
